A study of Mus musculus with 2 samples.

Results

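Promoters of intergenic long noncoding RNAs were taken as the 4505 genes of biotype lincRNA in GENCODE M21, on chromosomes 1 to 19 of the mm10 mouse assembly, whose 5'-most annotated start lay over 5 kb from every protein-coding transcript start. They made up 86.5% of the 5209 lincRNA genes on those chromosomes and belong to 51229 annotated gene starts of all biotypes. The other 704 lincRNA genes started within 5 kb of a protein-coding start. The region of a member was 1 kb on each side of its start. The rule uses annotated positions only, but it was chosen with earlier results of these data known. The study profiled chromatin accessibility by DNase-seq in the left cerebral cortex of male B6CASTF1/J mice at 14 days of age, first-generation hybrids of C57BL/6J and CAST/EiJ parents. There is 1 group with 2 libraries and no treatment, genotype or time contrast. The label of replicate 1 names 3 males and that of replicate 2 names 1 male, and both carry the same donor identifier, so the SD over libraries measures only the spread between these 2 samples. The 2 parental alleles were not separated in the files, which are on the C57BL/6J-based reference.

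A long intergenic noncoding RNA is a transcript with little or no coding potential that is made from its own transcription unit between protein-coding genes. Its start needs the same opening of chromatin as a messenger RNA start, so that transcription factors and RNA polymerase II can reach the DNA. Mammalian promoters fall broadly into CpG-rich ones, which bind general factors such as the Sp family and are often open in many tissues, and CpG-poor ones, which tend to be open in particular cell types and can resemble enhancers. In DNase-seq the enzyme DNase I cuts accessible DNA, a peak marks a stretch that is cut often, and a footprint is a short run of bases inside it that is cut less than its surroundings, as happens where a protein sits on the DNA.

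A start is called open where at least 1 peak of the more inclusive deposited list overlapped its region by at least 1 bp, and closed where none did. The signal of an open start is the authors' deposited value of its strongest peak, a cleavage density that has no physical unit. In bulk tissue, fewer cells with an open start and a less open start in each cell cannot be told apart.

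The sequences of some members are shown to make the contrast between CpG-rich and CpG-poor promoters visible. They are the 5 with the highest signals after Gm42418, the group members Neat1, 1700020I14Rik, Snhg12, Snhg6 and Mir124a-1hg, and D330050G23Rik, which had the highest signal among CpG-poor members. Each line gives the bases that the strongest peaks of both libraries share, from the GRCm38 reference (mm10 coordinates), 5' to 3' on the strand of the gene, with bases inside footprints of both libraries in capitals.
Tmem250-ps: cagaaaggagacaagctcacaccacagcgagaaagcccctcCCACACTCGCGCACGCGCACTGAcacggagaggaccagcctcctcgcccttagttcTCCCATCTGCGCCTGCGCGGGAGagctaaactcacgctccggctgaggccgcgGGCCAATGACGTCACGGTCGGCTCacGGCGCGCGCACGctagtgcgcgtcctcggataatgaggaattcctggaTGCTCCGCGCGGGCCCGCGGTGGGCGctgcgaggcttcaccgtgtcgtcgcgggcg
Gm15408: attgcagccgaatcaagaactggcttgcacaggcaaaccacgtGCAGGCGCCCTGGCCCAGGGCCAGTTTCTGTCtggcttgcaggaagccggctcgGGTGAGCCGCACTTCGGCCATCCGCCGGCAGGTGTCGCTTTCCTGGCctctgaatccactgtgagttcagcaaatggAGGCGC
1700096K18Rik: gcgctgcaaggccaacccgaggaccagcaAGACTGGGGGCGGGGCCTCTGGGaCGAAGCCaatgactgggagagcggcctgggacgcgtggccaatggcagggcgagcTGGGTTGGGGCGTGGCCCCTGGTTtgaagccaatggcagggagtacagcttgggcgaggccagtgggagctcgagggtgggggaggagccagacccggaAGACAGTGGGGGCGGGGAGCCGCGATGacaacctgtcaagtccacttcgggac
Malat1: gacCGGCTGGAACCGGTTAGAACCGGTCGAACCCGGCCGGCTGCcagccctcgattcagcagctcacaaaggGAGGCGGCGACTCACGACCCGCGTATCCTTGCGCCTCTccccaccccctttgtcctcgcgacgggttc
6720427I07Rik: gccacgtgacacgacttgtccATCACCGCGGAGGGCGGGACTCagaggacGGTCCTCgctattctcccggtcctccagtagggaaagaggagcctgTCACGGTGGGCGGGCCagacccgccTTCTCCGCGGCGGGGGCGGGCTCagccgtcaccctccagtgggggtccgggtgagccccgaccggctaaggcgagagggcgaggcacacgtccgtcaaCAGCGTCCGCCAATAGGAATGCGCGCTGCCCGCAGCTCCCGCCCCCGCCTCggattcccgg
1700020I14Rik: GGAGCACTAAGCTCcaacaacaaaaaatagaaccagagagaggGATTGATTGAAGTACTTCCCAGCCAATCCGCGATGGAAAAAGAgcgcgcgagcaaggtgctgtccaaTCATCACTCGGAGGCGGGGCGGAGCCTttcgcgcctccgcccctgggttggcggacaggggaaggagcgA
Snhg12: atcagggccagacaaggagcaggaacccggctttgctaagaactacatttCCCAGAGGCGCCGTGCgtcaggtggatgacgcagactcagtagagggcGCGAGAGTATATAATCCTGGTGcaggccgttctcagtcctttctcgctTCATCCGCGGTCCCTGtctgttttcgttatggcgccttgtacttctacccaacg
Neat1: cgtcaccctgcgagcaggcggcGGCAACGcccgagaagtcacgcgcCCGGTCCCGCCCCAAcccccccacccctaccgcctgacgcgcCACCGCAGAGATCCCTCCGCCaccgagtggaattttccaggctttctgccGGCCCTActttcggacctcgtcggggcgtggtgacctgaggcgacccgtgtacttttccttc
Snhg6: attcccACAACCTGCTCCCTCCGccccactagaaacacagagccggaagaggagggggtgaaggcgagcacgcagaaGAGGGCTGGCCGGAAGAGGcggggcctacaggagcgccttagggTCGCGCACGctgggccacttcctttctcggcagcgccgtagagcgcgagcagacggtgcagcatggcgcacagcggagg
Mir124a-1hg: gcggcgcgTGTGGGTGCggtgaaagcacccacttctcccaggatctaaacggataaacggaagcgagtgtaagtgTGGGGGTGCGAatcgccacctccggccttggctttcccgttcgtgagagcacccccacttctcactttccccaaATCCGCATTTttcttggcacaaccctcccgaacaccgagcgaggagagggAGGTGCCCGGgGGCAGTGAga
D330050G23Rik: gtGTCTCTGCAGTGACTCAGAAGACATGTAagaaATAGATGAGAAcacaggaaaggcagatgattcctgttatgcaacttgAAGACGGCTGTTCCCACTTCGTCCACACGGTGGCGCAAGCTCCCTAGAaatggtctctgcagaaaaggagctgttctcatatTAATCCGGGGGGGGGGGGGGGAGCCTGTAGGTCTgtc

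The 280 bases of Tmem250-ps lie at chr2:26140421-26140700 on the minus strand and run from -179 to 100 relative to its start. They hold 37 CpG dinucleotides, and 108 of the bases lie in footprints of both libraries. The 180 bases of Gm15408 lie at chr5:149006801-149006980 on the plus strand, from -161 to 18, with 11 CpG and 85 footprinted bases. The 260 bases of 1700096K18Rik are at chr5:25529601-25529860, plus strand, from -412 to -153, and the word GGGCGG, bound by the Sp family of zinc finger activators, stands inside their capitals. The Malat1 bases, at chr19:5803561-5803700 on the minus strand, lie upstream of the annotated start, from -1028 to -889, and 79 of the 140 are in footprints of both libraries.

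The 6720427I07Rik bases, at chr13:48546521-48546800 on the minus strand, hold 32 CpG in 280 bases, with GGGCGG in capitals. The 1700020I14Rik bases, at chr2:119594161-119594340 on the plus strand, run from -136 to 43 and also carry GGGCGG in capitals. For Snhg12 the bases are at chr4:132308541-132308740 on the plus strand, from -82 to 117, and for Snhg6 at chr1:9944061-9944260 on the minus strand, from -142 to 57. The Neat1 bases are at chr19:5845821-5846020 on the minus strand, from -542 to -343, with GGGCGG and the RFX word GTTGCC both inside capitals. The Mir124a-1hg bases are at chr14:64587741-64587960 on the plus strand and lie inside the gene, from 410 to 629. By contrast, the 200 bases of D330050G23Rik, at chr2:116899961-116900160 on the plus strand, from -191 to 8, hold 5 CpG. Here 121 bases lie in footprints of both libraries, and the AP-1 word TGANTCA, where N is any base, stands in a footprinted run near the 5' end.

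The libraries held 150726 and 155536 peaks and 380111 and 379156 footprints (replicates 1 and 2). The total number of reads is not given in the files. Marker genes of the tissue were looked up at their own 5'-most starts. Of 6 genes of cortical excitatory neurons 5 were open in both libraries (Neurod6, Tbr1, Neurod2, Slc17a7 and Emx1), with signals from 0.710 to 2.34 in replicate 1 and from 0.891 to 3.76 in replicate 2, while Fezf2 had no peak. Of 11 genes of other tissues, such as Alb, Myh6 and Cdx2, none was open in both, and 2 had a peak in replicate 1 alone. Of 4 inhibitory neuron genes 1 was open in both libraries and of 7 genes of glia and vessels 3 were, Gfap, Slc1a3 and Olig2. The starts of Gad1, Dlx1, Aqp4, Cx3cr1 and Cldn5 had no peak in either library.

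Most intergenic lincRNA promoters were closed in the cortex. A peak lay at 1194 of the 4505 starts in replicate 1, or 26.5% (95% Wilson interval 25.2% to 27.8%), and at 1225 in replicate 2, or 27.2% (25.9% to 28.5%), an SD of 0.487 percentage points over the libraries. Over all 51229 annotated gene starts the same shares were 38.5% and 38.2%. In both libraries at once 1051 members were open, 23.3%, against 36.2% of all starts. Neither library had a peak at 3137 members, 69.6%.

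Protein-coding starts were open far more often, at 65.2% and 64.5% of 20807 genes. The difference of members minus protein-coding starts was -38.0 ± 1.00 percentage points (SD, n = 2), many times the spread between the libraries. Protein-coding genes that stand as far from other protein-coding genes as the members do were open at 60.8% and 60.0%. The lincRNA genes that start within 5 kb of a protein-coding gene resembled protein-coding starts, with 62.6% and 61.2% open. Their regions can reach the promoter of the neighbouring gene, and how much of their openness comes from it was not tested.

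**Figure D1:**
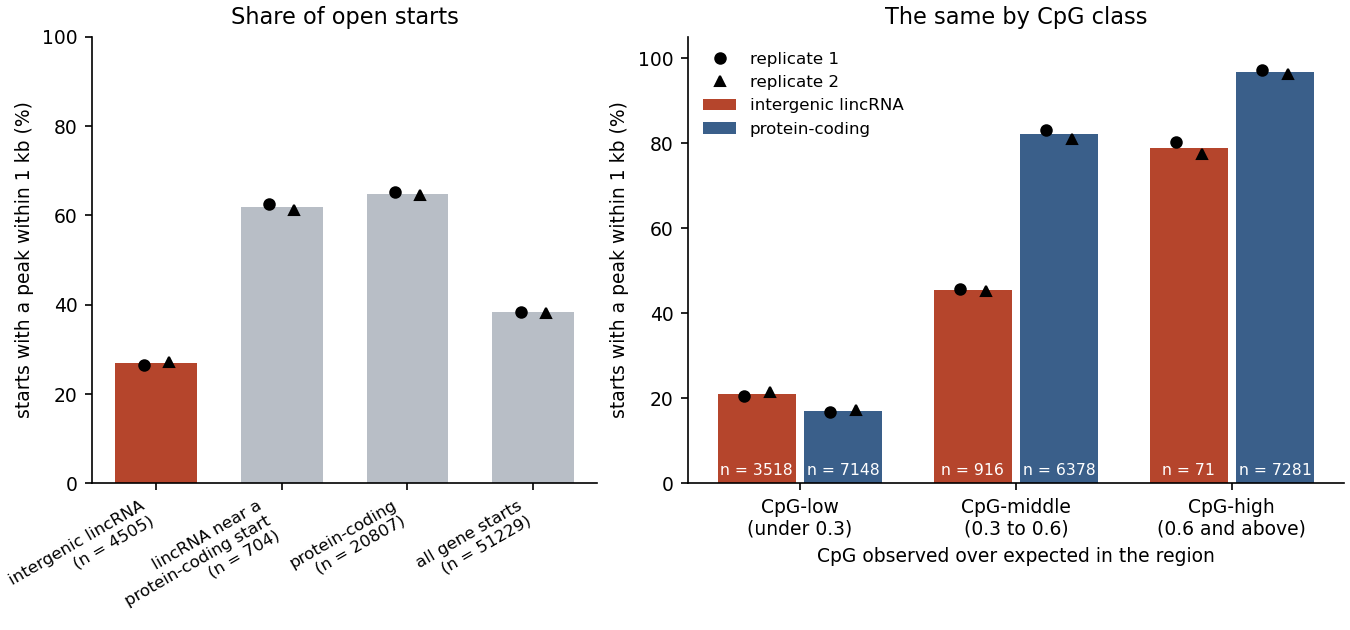
Share of gene starts with a peak within 1 kb (percent, vertical axis), for 4 sets of starts (left) and for intergenic lincRNA and protein-coding starts by the ratio of observed to expected CpG in the region (right). Bars are means of the 2 libraries and the points are the libraries; the intergenic lincRNA bar lies at 26.5% and 27.2%, below the 3 other sets, and on the right it passes the protein-coding bar only in the CpG-low class.

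Peaks were denser at intergenic lincRNA starts than in the sequence around them. A peak centre lay in the 1 kb before the start at 16.3% and 16.98% of members and in the 1 kb after it at 14.1% and 14.2% (replicates 1 and 2). In 1 kb bins between 10 and 20 kb away the mean was 6.28% and 6.43%, with bins from 5.15% to 7.26% in replicate 1 and from 5.51% to 6.90% in replicate 2. The bin before the start was thus 2.59 and 2.64 times the level far from it. For protein-coding starts that ratio was 6.61 and 6.56, from nearly the same level far away, 7.11% and 7.21%.

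**Figure D2:**
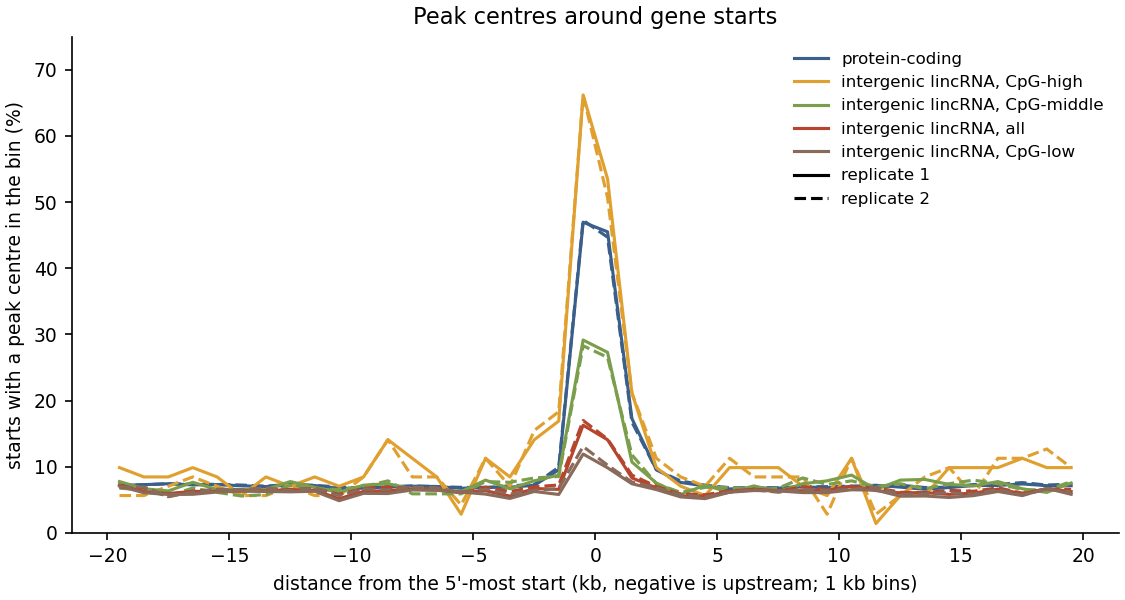
Share of starts with a peak centre in each 1 kb bin (percent, vertical axis) by distance from the 5'-most start in kb, negative upstream, for protein-coding starts and for intergenic lincRNA starts by CpG class. Solid lines are replicate 1 and dashed lines replicate 2; all sets rise at the start, to 66.2% in the bin upstream of CpG-high lincRNA starts and to 11.9% and 13.1% for CpG-low ones.

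The position of the strongest peak was looser than at protein-coding genes. Its centre had a median offset of -24.5 bp and -28 bp from the start, so just upstream, and -21 and -25 bp at protein-coding starts. But it lay within 250 bp of the start at 48.6% and 47.6% of open members, against 74.8% and 74.6% of open protein-coding starts. Over 500 bp away were 30.6% and 32.6% of members' strongest peaks, against 13.5% and 13.6%. In the CpG-high class of members, 70.2% and 65.5% lay within 250 bp.

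The CpG content of the region divided the members. CpG content was taken as observed over expected CpG, a ratio near 1 where CpG has not been lost from the sequence, over the whole region. Of the members 3518 were low (under 0.3), 916 middle and 71 high (0.6 and above), with a median over all members of 0.208, against 0.486 for protein-coding starts. Open were 20.4% and 21.5% of the low, 45.6% and 45.3% of the middle and 80.3% and 77.5% of the high class. The difference of high minus low was 57.9 ± 2.72 percentage points (SD, n = 2).

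Against protein-coding starts of the same class the members took a different place in each. In the low class, members were open somewhat more often than protein-coding starts, which stood at 16.7% and 17.3% of 7148. In the middle class protein-coding starts were open at 83.1% and 81.0% of 6378, far above the members. In the high class they were open at 97.3% and 96.4% of 7281. The classes did not equalise CpG content: the median ratio was 0.182 for members and 0.161 for protein-coding starts in the low class, 0.357 and 0.483 in the middle class, and 0.679 and 0.718 in the high class. The set with the higher median ratio was thus also the one open more often in each class. The libraries did not overlap between the sets in any class, and no test was made, since starts of 1 library are not replicates.

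Once open, a CpG-high lincRNA start had a peak about as strong as a protein-coding one. The median signal was 4.80 and 5.11 in the high class of members and 4.85 and 5.52 in that of protein-coding starts. In the middle class it was 1.02 and 1.16 for members and 2.84 and 3.30 for protein-coding starts, and in the low class 0.545 and 0.651 against 0.668 and 0.786. The difference between the libraries is of the size of the difference between the sets in the high class, and smaller than it in the middle class. The medians of open CpG-high members differed by distance from the nearest protein-coding start. They were 5.50 and 6.45 at 5 to 20 kb and 2.79 and 3.88 at 20 to 100 kb. At 100 to 500 kb they were 5.26 and 3.43, and beyond 500 kb, with 4 and 3 open starts, 0.355 and 0.436. In the high class 13 of the 71 members were closed in both libraries.

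Members over 100 kb from protein-coding genes were, as a whole, open less often than nearer ones. At 5 to 20 kb from the nearest protein-coding start 28.7% of 837 members were open in each library, and at 20 to 100 kb 29.6% and 30.03% of 1848. At 100 to 500 kb the shares were 23.6% and 25.3% of 1528, and beyond 500 kb 16.1% and 14.7% of 292. The nearest class minus all members over 100 kb away came to 5.68 ± 0.894 percentage points (SD, n = 2), and to 2.20 with regions of 500 bp on each side. CpG content moved with distance, from a median ratio of 0.226 at 5 to 20 kb to 0.156 beyond 500 kb. Within the CpG-low class the shares were 20% and 20.3%, 22.4% and 23.6%, 19.9% and 21.6%, and 13.2% and 11.7% in the same order. The lowest shares there were beyond 500 kb, and those at 5 to 20 kb lay below those at 20 to 100 kb. Within the middle class they were 50.3% in each library, 50.5% and 48.2%, 37.5% and 39.2%, and 29.0% and 32.3%. The 71 members of the high class had no such order: open were 64.3% and 57.1% of 28 at 5 to 20 kb, 96.4% in each library of 28 at 20 to 100 kb, 72.7% and 81.8% of 11 at 100 to 500 kb, and 4 and 3 of the 4 beyond. Whether the nearest gene lay upstream or downstream made little difference, with 26.6% and 27.3% against 26.5% and 27.1% open.

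Repeats and gene models also divided the members. The annotated start base lay in soft-masked repeat in 981 members, 21.8%, and in 9.13% of protein-coding genes. Of these 981 members 14.7% and 16% were open, and of the other 3524 29.8% and 30.3%. Protein-coding starts in repeat were also open less often, at 53.3% and 52.5% of 1900, against 66.4% and 65.7% of the other 18907. Members with a single annotated transcript, 3499 of them, were open at 24.1% and 24.8%, those with 2 to 4 transcripts at 33.6% and 34.0%, and the 98 with 5 or more at 48.0% and 49.0%. The number of exons made no such difference, with 23.7% and 24.6% for 1 exon and 26.7% and 27.1% for 4 or more. Members known only by a Gm number, 3138 of them, were open at 24.6% and 25.2%, and the 81 with a gene-like symbol at 44.4% in each library. Among chromosomes the share open in both libraries ran from 16.7% on chromosome 8 to 28.7% on chromosome 5.

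Other annotated starts touched few members. The region of 361 members held the start of another gene, and 33.8% and 35.5% of these were open, against 25.9% and 26.5% of the 4144 without one. More than 1 start position was annotated for 940 members. Of these, 48 were closed at the 5'-most start in both libraries and open at another start in both. The highest of them were BC028471, with 4.22 and 3.77 at its best start, Gm2694, with 3.48 and 4.27, and Gm36431, with 3.504 and 3.636.

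Open members mostly had weak peaks. The median signal was 0.691 in replicate 1 and 0.835 in replicate 2, a mean of 0.763 ± 0.102 (SD, n = 2), which became 1.17 on the stricter peak list. Open protein-coding starts had medians of 3.57 and 4.04, all open starts 2.66 and 2.88, and lincRNA starts near protein-coding genes 2.76 and 3.21. The middle 50% of open members lay between 0.398 and 1.58 in replicate 1 and between 0.455 and 1.78 in replicate 2. Above the median of protein-coding starts were 99 members in replicate 1, 8.29% of those open, and 91 in replicate 2, 7.43%. On the stricter peak list 69.3% and 68.8% of open members still had a peak, against 93.2% and 92.3% of open protein-coding starts.

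The 2 libraries ranked the open members alike. Over the 1051 members open in both, the signals had a Pearson correlation of 0.946 on the log10 scale and a Spearman correlation of 0.941, as a description over starts that share the 2 libraries. The median log2 ratio of replicate 2 over replicate 1 was 0.22 with an SD over members of 0.43, and 0.22 with an SD of 0.32 for protein-coding starts. The strongest peaks of the libraries overlapped at 94.2% of these members. A ratio of 2 or more in either direction was seen at 35 members, 3.33%, and at 0.404% of protein-coding starts. A start with a peak in 1 library alone was common among members: 317, or 23.2% of those open in at least 1 library, against 5.51% of protein-coding and 10.8% of all starts.

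**Figure D3:**
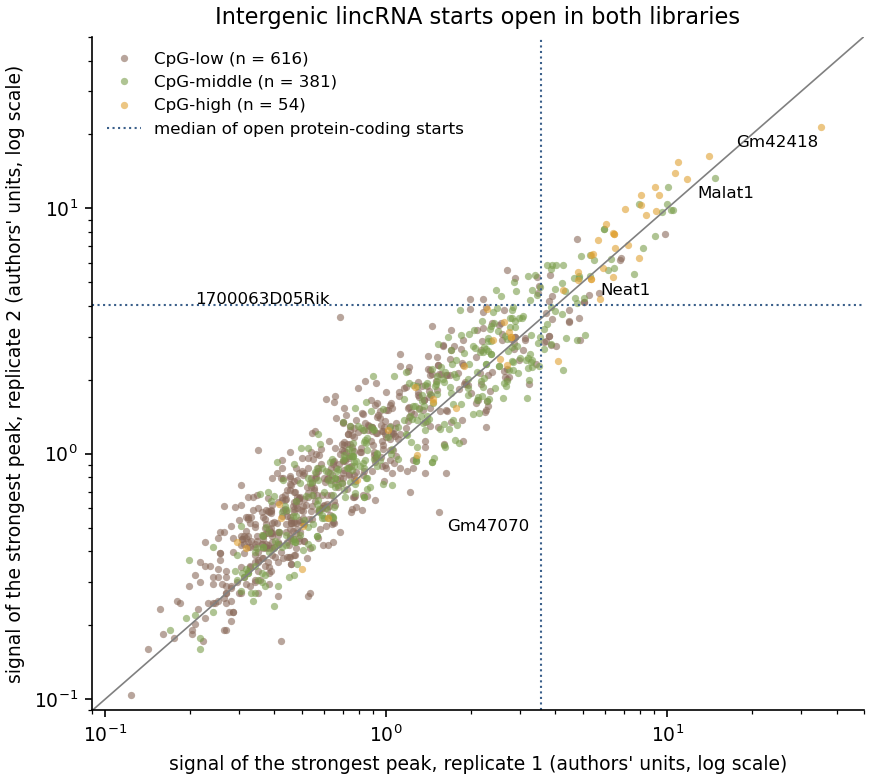
Signal of the strongest peak in replicate 1 (horizontal) against replicate 2 (vertical), both in the authors' units on log axes, for the 1051 intergenic lincRNA starts open in both libraries, coloured by CpG class. The grey line marks equal signal and the dotted lines the medians of open protein-coding starts, 3.57 and 4.04; most CpG-low points lie below both.

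Sharing between libraries followed peak height. The regions held 1681 and 1679 peaks, 1.12% and 1.08% of each list, and 80.6% and 80.4% of them overlapped a peak of the other library, against 85.6% and 87.4% at protein-coding starts and 78.8% and 76.4% of all peaks on chromosomes 1 to 19. All peaks were put into 4 equal bands of signal. In the lowest band 48.4% and 51.0% of member peaks were shared, and in the highest 99.6% in each library. All peaks of those bands were shared at 48.9% and 44.6%, and at 99.5% and 99.3%. The highest band held 27.3% and 28.8% of member peaks but 51.2% and 50.5% of protein-coding ones. Peaks at lincRNA starts thus spread over the heights much as peaks in general did.

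The strongest signal of all stood at Gm42418 on chromosome 17, with 35.2 in replicate 1 and 21.5 in replicate 2. Every 31-base word of its peak occurred more than once on chromosomes 1 to 19, X and Y, so its signal cannot be assigned to this copy. It was the only 1 of the 15 strongest members with a mostly multicopy peak. Among the 1368 members open in at least 1 library 15 had such a peak.

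Below it came members whose peaks were not mostly multicopy, though 9430037G07Rik reached 46.5% and 48.8% of its words. Tmem250-ps, annotated as a pseudogene by its symbol and as a lincRNA by its biotype, had 14.1 and 16.3. Gm15408 had 14.8 and 13.3, and 1700096K18Rik 10.9 and 15.4. Of these 3, 1700096K18Rik had the widest gap between the libraries. Next were Malat1 with 11.7 and 13.1 and 6720427I07Rik with 10.6 and 13.9. The remaining ones of the 15 were 9430037G07Rik, Gm20732, Gm36445, B230208H11Rik, Gm31812, Gm33195, Gm6410, 1810044D09Rik and 1700020I14Rik, with mean signals from 11.1 down to 9.46. None of these 15 was CpG-low: 9 were high and 6 middle. Among the 100 strongest 30 were high, 47 middle and 23 low, although the high class holds 71 of the 4505 members. The strongest of the low class, D330050G23Rik, had 9.79 and 7.83 with a CpG ratio of 0.274. The strongest beyond 500 kb from any protein-coding start, Gm47710, which lies 540012 bp from Nmbr, had 2.73 and 2.06.

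The nuclear abundant group, with both of its members open in both libraries beside 36.2% of all starts, held the best known of these RNAs. Malat1, a very abundant RNA of nuclear speckles, starts at position 5802672 of chromosome 19, and its strongest peak was centred at -958 and -998 relative to that start. The region held 3 peaks and 15 and 9 footprints, and a start of Gm37376, a transcript of unsettled type, lies 731 bp inside the gene. Neat1, the scaffold of nuclear paraspeckles, starts at position 5845478 of the same chromosome and had a signal of 5.32 and 5.31 with a peak centred at -432 and -462. The start of the antisense gene Frmd8os lies at -145, so the peak cannot be given to either gene. Both Malat1 and Neat1 stood above the medians of open protein-coding starts in both libraries.

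Of the 12 genes listed for imprinted clusters, where 1 parental copy is expressed, 4 were members, and 1 was open in both libraries, a share near the 23.3% of all members and 36.2% of all starts. Meg3, the maternally expressed RNA of the Dlk1-Dio3 cluster, had 2.21 and 2.59 with a peak at -71 and -91 and 6 footprints in each library. Mirg, the microRNA-bearing RNA of the same cluster, had no peak. H19, the maternally expressed RNA beside Igf2, had no peak in replicate 1 and 0.405 in replicate 2, and B830012L14Rik, also in the Meg3 cluster, had 0.440 in replicate 1 and none in replicate 2. Meg3 alone of the 4 was open in both libraries. The files do not separate the parental alleles.

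In the brain-linked group 5 of 7 members were open in both libraries, where 23.3% of all members and 36.2% of all starts were. 1700020I14Rik had 9.12 and 9.79, with a peak just upstream at -57 and -47. Mir124a-1hg, host of the neuronal microRNA miR-124, had 2.29 and 3.88, with 4 peaks in each library and the strongest inside the gene at 509 and 529. C130071C03Rik, which hosts a copy of miR-9 and lies 68493 bp from Mef2c, a neuronal activator gene, had 2.42 and 3.40. Both microRNA hosts were higher in replicate 2, by log2 ratios of 0.76 and 0.49 where the median member had 0.22. Miat, a nuclear RNA of neurons, had 1.74 and 2.11 with its peak inside the gene at 555 and 515. C130073E24Rik, 2073046 bp from the nearest protein-coding start, that of Tenm3, had 0.976 and 0.756, with 5 and 4 peaks. Lncenc1, studied in embryonic stem cells, had 0.758 in replicate 1 and none in replicate 2, from a peak at the edge of the region centred at 1130. Rmst, an RNA of neural progenitors and midbrain, had no peak in either library.

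The 6 members whose symbols mark them as microRNA host genes (Mir followed by hg) each had a peak in both libraries, with median signals of 1.84 and 1.86, and so had the 3 Snhg members, hosts of small nucleolar RNAs, with 4.26 and 4.64. The background of all starts open in both libraries was 36.2%. This grouping by symbol leaves out other members that carry microRNAs: of those named here, C130071C03Rik and Carmn were open in both libraries, H19 in replicate 2 alone and Mirg in neither. Mir17hg, host of the miR-17 to miR-92 cluster, had 2.53 and 2.43, Mir9-3hg 1.95 and 1.74, and Mir155hg, host of an immune microRNA, only 0.317 and 0.412. Snhg12 had 4.94 and 6.36 with its peak centred at 17 in both libraries, Snhg6 4.26 and 4.64 with its peak at -42, and Snhg20 2.71 and 2.62. The peaks of Snhg6 and Snhg12 covered the start itself, as their sequences above show, while that of Snhg20 was centred inside the gene at 752 and 762.

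Of the 3 members of the DNA damage and general group, 2 were open in both libraries, beside 36.2% of all starts. Pvt1, the RNA downstream of Myc, had 1.46 and 1.60, centred at 4 and -6. Trp53cor1, a p53-induced RNA that lies 11797 bp from Cdkn1a, had 0.900 and 1.26 with its peak inside the gene at 879 and 849. Mirt1, an RNA named for the infarcted heart, had no peak.

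Of the 6 members known from other tissues 4 were open in both libraries, where 23.3% of all members and 36.2% of all starts were, and their signals were mostly weak, with medians of 0.587 and 0.399 where open. Carmn, the host of miR-143 and miR-145 in smooth muscle, had 1.44 and 1.74, from a peak at the upstream edge of the region centred at -1023. Bvht, a cardiac lineage RNA from the same locus, had 0.791 and 1.85, and the libraries had their strongest peaks at separate places, 322 and 1178. Halr1 beside the HoxA cluster had 0.384 and 0.399, and Ptgs2os2, an immune-induced RNA, 0.294 and 0.307. All 4 lay under the medians of open protein-coding starts, and the latter pair under those of open members. Lncbate1, a brown fat RNA, had a peak of 0.295 in replicate 2 alone, and Hotair of the HoxC cluster had none.

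Of the 18 members of the Platr family, transcripts found in pluripotent stem cells, 2 were open in replicate 1 and 4 in replicate 2. Over all members these shares were 26.5% and 27.2%. Platr26 alone was open in both libraries, with 0.341 and 0.307. In replicate 1 alone Platr13 was open, and in replicate 2 alone Platr4, Platr22 and Platr29. Open in both libraries was thus 1 of 18, where 23.3% of the members at large and 36.2% of all starts were. The family is too small to be set apart by this count.

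**Figure D4:**
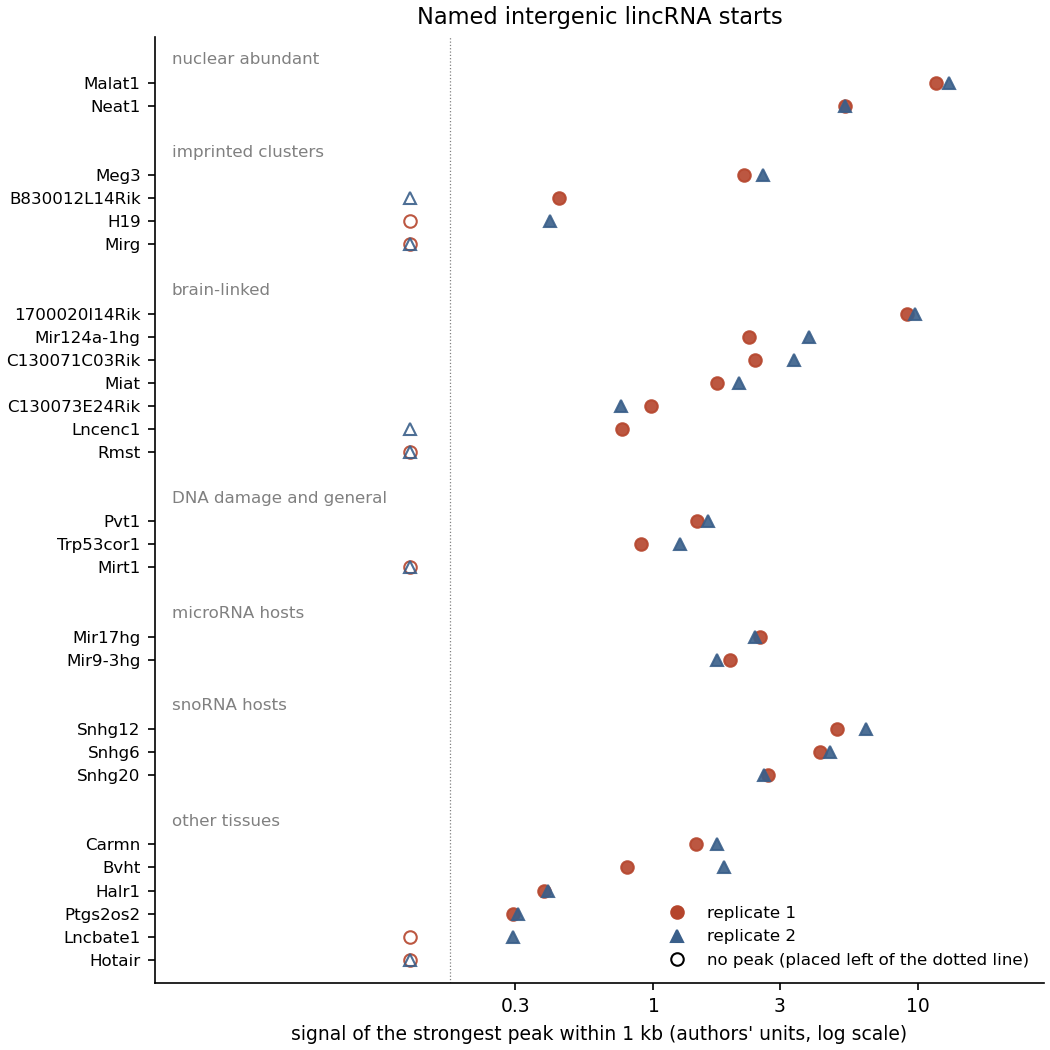
Signal of the strongest peak within 1 kb (authors' units, log axis) for named intergenic lincRNA starts by group, with circles for replicate 1 and triangles for replicate 2. Open symbols left of the dotted line are starts without a peak; Malat1 and 1700020I14Rik are highest, and Mirg, Rmst, Mirt1 and Hotair lack a peak in both libraries.

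Members beside transcription factor genes of the cortex were open about as often as the rest. For 161 members the nearest protein-coding gene was 1 of 100 listed transcription factor genes, 53 of which had such a member. Of these 161 members 25.5% and 27.3% were open, and of the other 4344 26.5% and 27.2%. Lmo4 had 12 such members, 2 of them open in both libraries, and Nr2f2 had 11, 1 of them open. Sox2 had 8 with 1 open, and Irx3 had 7 with none open. Nr2f1, Pou3f3, Klf6 and Zeb2 had 6 each, with 3, 2, 0 and 0 open. Of all 161 members beside listed factors 21.1% were open in both libraries, against 23.3% of all members and 36.2% of all starts.

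The strongest of them was 2410080I02Rik, 6326 bp from Klf9, with 3.40 and 5.34, 25 and 26 footprints and 6 and 5 peaks in its region. Its strongest peak was centred at 1110 and 1100, on the side of Klf9. Gm40477, 37641 bp from the activity-induced gene Fos, had 3.47 and 4.50, with its peak at 29 and 19. Gm42695, 78203 bp from Sox2, had 2.56 and 3.42 with its peak at -78. These last 2 thus had their peak at the lincRNA start itself, unlike 2410080I02Rik. Beside Mef2c, C130071C03Rik was joined by Gm26803, a member on the other strand, with 2.36 and 3.33. Another start of C130071C03Rik lies 1476 bp inside Gm26803. Then came 4632428C04Rik beside Hes1 with 2.51 and 3.16, Gm3764 beside Mef2d with 1.88 and 2.29, and AC131323.3 beside Sox8 with 1.31 and 1.53. All 8 were higher in replicate 2, as was the median member.

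The 5 largest ratios between libraries in each direction were taken among members open in both and above the members' median mean signal. They fell at CpG-low and CpG-middle members, classes that held 616 and 381 of the 1051 members open in both libraries. Higher in replicate 1 were Gm47070 with 1.54 against 0.577, a log2 ratio of -1.42, Gm10610 with 1.63 against 0.835, Gm41414 with 4.24 against 2.19, Gm20610 with 3.17 against 1.68, and 4930503O07Rik with 2.26 against 1.29. Higher in replicate 2 were 1700063D05Rik with 0.687 against 3.61, a log2 ratio of 2.39, Gm34829 with 0.611 against 1.67, Gm13912 with 0.658 against 1.73, Gm49008 with 0.654 against 1.63, and Gm13848 with 0.843 against 1.97. At Gm47070 and 1700063D05Rik the libraries had separate strongest peaks, centred at 1290 and 762 and at -431 and -1096, so the ratio compares neighbouring peaks there. With 1 value per library, none of these differences can be set against a spread between animals.

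Open lincRNA starts held fewer footprints than protein-coding ones. The median was 3 in each library, against 7, and the mean 3.73 and 3.46 against 7.79 and 7.47. No footprint was seen at 9.55% and 11.4% of open members and at 1.84% and 2.12% of open protein-coding starts. Peaks covered less of the region, with a median of 206 and 200 bp against 400 and 380 bp, and per 100 bp of peak the members had 1.31 and 1.32 footprints, against 1.72 and 1.74. At like signal the gap per 100 bp was small. Of 4 equal bands of all open starts by signal, the lowest gave members 1.02 and 0.971 and gave protein-coding starts 0.995 and 0.951 footprints per 100 bp, and the highest gave 1.94 and 1.89 against 2.14 in each library. The mean per region was lower for members in every band: 2.33 and 1.99 against 3.32 and 2.87 in the lowest, 4.98 and 4.40 against 7.33 and 6.75 in the next, 6.24 and 6.81 against 8.43 and 8.14 in the one above, and 9.14 and 9.50 against 9.89 and 9.82 in the highest. The gap was widest in the second band.

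Footprints at members were short, with a median of 10 bp in each library, against 11 and 12 bp at protein-coding starts. Most footprints were seen at 2410080I02Rik, with 25 and 26. Gm6410 had 21 and 25, 2900072N19Rik 18 and 15, Gm35040 19 and 14, and Gm36445 19 and 14. Gm35040, with a signal of only 1.46 and 1.62, starts 8193 bp from Mir9-3hg. Of closed members none of 3311 had a footprint in replicate 1, and 1 of 3280 did in replicate 2. Among closed protein-coding starts 2 of 7237 and 6 of 7389 did. A footprint is described as a run of bases inside a peak, so low counts at closed starts are no separate result. The few counted there had their midpoint outside every peak of the inclusive list. How the footprint calls were tied to the peak lists is not stated.

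The letters under the strongest peaks resembled those of peaks in general more than those of protein-coding promoters. Short words were searched on both strands in windows of 200 bp centred on the strongest peak, and in windows of the same length on all peaks of chromosomes 1 to 19. The Sp family word GGGCGG was in 16.3% and 14.9% of member windows, 15.1% and 14.5% of all peaks and 58.8% and 58.2% of protein-coding windows. The NRF1 word GCGCATGC, of a CpG-rich promoter activator, was in 1.42% and 1.39% of member windows, 1.15% and 1.12% of all peaks and 5.195% and 5.157% of protein-coding windows. Both words of CpG-rich promoters were thus near the level of all peaks.

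Words common at enhancers went the other way. The AP-1 word TGANTCA, bound by Fos and Jun, was in 10.6% and 12% of member windows, 9.19% and 9.90% of all peaks and 2.73% and 2.85% of protein-coding windows. The E-box CAGATG, bound by neuronal bHLH factors such as Neurod2, was in 20.5% and 23.4%, 21.3% and 22.1%, and 6.96% and 7.24%. The NFI word TTGGCA was in 17.8% and 18.9%, 16.96% and 18.3%, and 7.36% and 7.76%. In each of these 3 the members lay close to all peaks and far above protein-coding windows as a whole. CpG-low protein-coding windows lay much nearer, with CAGATG in a mean of 18.9% and TTGGCA in 17.6%. In CpG-low member windows these means were 25.1% and 20.3%. The consensus of CTCF, the insulator factor, was in 4.52% and 4.41% of member windows, 4.33% and 3.97% of all peaks and 1.47% and 1.37% of protein-coding windows. The TATA box TATAAA was in 6.37% and 6.12% of member windows, 7.38% and 7.57% of all peaks and 3.01% and 2.94% of protein-coding windows, and the RFX word GTTGCC in 11.7% and 12.5%, 10.1% and 10.1%, and 10.5% and 10.6%. The consensus of REST, a repressor of neuronal genes, was in no member window, which allows a share of up to 0.251% and 0.245%, and in 0.0171% and 0.00925% of all peaks.

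The Sp family and AP-1 words moved with CpG class in the same direction in both sets of starts, and the CTCF consensus did not. In CpG-high members GGGCGG was in a mean of 62.5% of windows, against 68.6% in CpG-high protein-coding starts. In CpG-low members it was in 7.33%, against 16.9%. GGGCGG itself holds a CpG, so its share is not independent of the CpG class. TGANTCA was in 12.9% of CpG-low member windows and 1.79% of CpG-high ones, and in 7.81% and 1.66% of protein-coding windows of those classes. The CTCF consensus was in 3.94% of CpG-low, 5.16% of CpG-middle and 6.24% of CpG-high member windows, and in 4.58%, 1.53% and 0.794% of protein-coding ones. TATAAA was in 7.20% of CpG-low and 7.15% of CpG-high member windows, and in 6.79% and 2.38% of protein-coding ones. The CpG-high member shares rest on few windows. The CTCF consensus was in 4 of 57 and 3 of 55 of them (replicates 1 and 2). TATAAA was in 4 and TGANTCA in 1 of them in each library. At the starts of members closed in both libraries, GGGCGG was in 4.21% of windows of the same length, TGANTCA in 8.001% and TATAAA in 11.4%. CAGATG was in 17.15% of these closed windows, TTGGCA in 12.69%, GTTGCC in 9.12%, GCGCATGC in 0.478% and the CTCF consensus in 0.1275%. Of the words listed for closed starts, TATAAA alone was more frequent there than in member windows of open starts. A match is a description of the letters and no evidence of binding.

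**Figure D5:**
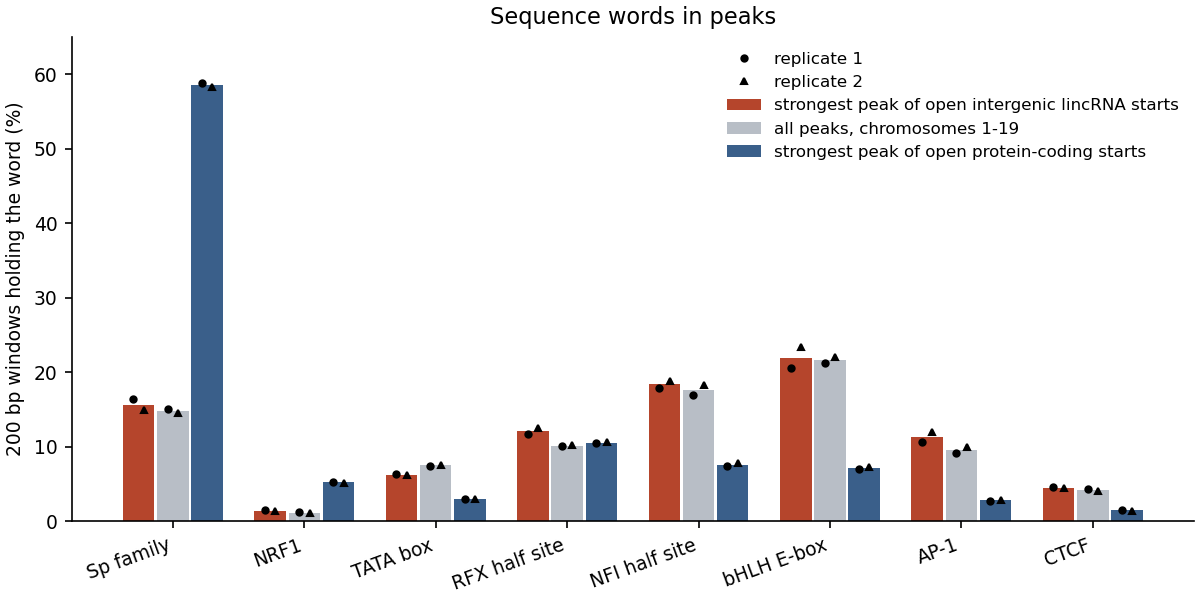
Share of 200 bp windows that hold each word on either strand (percent, vertical axis), for the strongest peak of open intergenic lincRNA starts, for all peaks and for the strongest peak of open protein-coding starts. Bars are means of the 2 libraries and the points are the libraries; the lincRNA bars lie near those of all peaks for every word shown, and the Sp family word stands at 58.8% and 58.2% in protein-coding windows alone.

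Starts near the limit of 5 kb had low signals or none on either side of it. Just inside it, AW121686, at 5002 bp, had a peak in replicate 2 alone, with 0.835, and Gm37552 and Gm46419, at 5027 and 5028 bp, had none. Just outside it, Gm15729, at 4987 bp, had no peak, B230311B06Rik, at 4969 bp, had 0.493 and 0.737, and Mir142hg, at 4964 bp, 1.10 and 1.39. The Mir142hg signals lay above the medians of open members. The authors' deposited intervals with a false discovery rate up to 0.05 reached 41 and 49 of the 3137 members without a peak in either library, 1.31% and 1.56%. Among the 174 members with a peak in replicate 2 alone, 26 had such an interval in replicate 1, and among the 143 with a peak in replicate 1 alone, 17 had 1 in replicate 2.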

How the data were processed

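DNase-seq was carried out on left cerebral cortex from 1 group with 2 libraries. Per the notes deposited with each library, the authors called peaks, footprints and intervals on that library's own mm10 alignments and did not pool replicates. The sources used here name no aligner, no callers and no versions. The deposited peak signal, from the larger of the 2 peak lists of each library, is a cleavage density. Its scaling to depth is not stated. Signals up to the median were whole multiples of 0.00474 and 0.00614 (each within 0.05 of a step), which were not converted to reads. The deposited interval file gives a false discovery rate (q-value) per interval, and the other column of the footprint files, a constant, was not used. Read totals are not in the files, so the precision of a single signal is not known, and Wilson intervals (95%) cover counting of starts only.

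Gene starts came from GENCODE M21 and bases from GRCm38.p6, in whose chromosome lengths all peaks fitted. Regions, overlaps (at least 1 bp), footprints by midpoint, CpG ratios, 31-base words and sequence words were computed in Python 3.11.15 with NumPy, pandas, SciPy and numba, after overlap and word counts had been tested on simulated data. The design holds no contrast, so no significance test was run. Named members are those in symbol groups (for 3 families the 3 strongest), the 15 strongest, the 5 with most footprints, 5 each way with the largest ratio between libraries, if above the median signal, 3 on each side of the distance limit, the strongest of each distance and CpG class and the 8 strongest beside a listed transcription factor. The tissue markers, Mir155hg, the Platr members open in 1 library, the 3 examples with another open start and the count of multicopy words were chosen after values were seen. Some marker genes are not reported here. The members and lists were chosen with earlier results of these data known. Alternatives covered region width, peak list, overlap rule, choice of start, distance limit, other starts nearby and each library alone.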

Additional observations from a re-analysis of the deposited data

How the results depend on the processing

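Of the 7 summary values, the differences kept their sign, where they had a value, under the 10 other settings listed among the methods. They also kept it without members whose peak is mostly multicopy sequence, an alternative chosen after seeing the data. The shares and medians cannot be negative, so for them only the size of the change is informative. The share of members open in both libraries was 23.3% and became 18.6% with 500 bp each side, 33.6% with 2500 bp, 16.3% on the stricter list, 22.7% with the peak centre inside the region, 24.6% at any annotated start and 22.5% without other genes' starts within 5 kb; in 1 library alone it was 26.5% to 27.2%. The difference from protein-coding starts, -38.0 points, became -40.6 and -31.6 with the narrower and wider region, -41.6 on the stricter list and -41.5 at any start. The share of region peaks found in both libraries, 80.5%, became 82.3%, 79.0%, 83.1% and 80.1% in the same order, 80.7% over 2 kb from protein-coding starts, 80.3% without other starts nearby and 80.4% without multicopy members. The difference of CpG-high minus CpG-low members, 57.9 points, became 61.5 and 49.0 with the narrower and wider region, 64.6 over 10 kb away and 51.1 without other starts nearby. The stricter list, which leaves out weak peaks, raised the median signal from 0.763 to 1.17 and the median footprints from 3 to 4. The cause of the other changes was not tested.

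The difference of members 5 to 20 kb away minus those over 100 kb away, 5.68 points, was the least stable: it became 2.20 with 500 bp each side, 4.63 with the peak centre inside the region and 4.01 without other starts nearby. Sharing of peaks has no value with 1 library alone. No paired analysis was possible because there is 1 group only. Read totals are not in the files, so a closed start may be one below the reach of the peak caller at this depth. With 2 libraries, of which 1 names 3 males in its label, no spread between animals can be given. Weak members are the least certain, since about as many weak peaks were found in 1 library as in both.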

Other observations

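CpG-high lincRNA starts were the class most often open, and 13 of the 71 were closed in both libraries. Of these 13, 10 lay 5 to 20 kb from a protein-coding start, and 3 had their start base in repeat. None was open at another annotated start in both libraries. They were named after their values were seen: 9030622O22Rik, Gm10685, Gm26872, Gm44970, Gm26520, Gm26709, Gm9979, Gm35279, D130079A08Rik, Gm49701, 2410017I17Rik, Gm26917 and AY036118. Within the CpG-high class 64.3% and 57.1% of the 28 members at 5 to 20 kb were open, and 96.4% in each library of the 28 members at 20 to 100 kb. AY036118 and the strongest member of all, Gm42418, share a ratio of observed to expected CpG of 1.03, and their starts lie 1077 bp apart.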
